A study of Mus musculus with 8 samples.

Results

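The regenerating islet-derived (Reg) genes Reg1, Reg2, Reg3a, Reg3b, Reg3d, Reg3g and Reg4 were followed in isolated mouse islets. They were found by gene symbol: 8 probe sets named exactly 1 of these symbols, so all 7 could be read among the 18193 genes measured this way. Only Reg3b had more than 1 probe set, and there the one with the higher mean over all 8 arrays was used. The samples were RNA from pancreatic islets of male C57Bl/6 mice that lacked insulin receptor substrate 2 (Irs2-/-) or were wild type (WT), measured on 8 oligonucleotide arrays. The Irs2 protein relays signals from the receptors of insulin and insulin-like growth factor, and mice that lack it become diabetic as their beta cells fail.

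The 4 groups were Irs2-/- mice given sodium tungstate, Irs2-/- mice given distilled water, WT mice given sodium tungstate and WT mice given distilled water, with 2 arrays each. Treatment lasted 21 days, from 10 to 13 weeks of age, with the salt dissolved in the drinking water. The concentration stands as 2 mg/ml in the design text and as 2 mg/dl in the sample labels, so the dose is not settled. The samples of a group are called independent, but the labels do not say whether each came from a single mouse or from several, so the spread that p-values measure may be partly technical. The labels give Irs2-/- as a genotype of the whole animal, with no Cre driver, and name no further allele in any group.

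Reg genes encode small secreted proteins with a C-type lectin fold. Reg1 was first isolated from regenerating rat islets, yet in the healthy pancreas these genes are mainly products of acinar cells, the exocrine cells that make digestive enzymes, and several are induced there by injury and inflammation. Reg3b (also known as pancreatitis-associated protein 1) and Reg3g are best known as antibacterial lectins of the gut, Reg3d is related to hamster islet neogenesis-associated protein, and Reg4 is a gene of intestinal secretory cells. Islet preparations always carry some exocrine tissue, so the acinar carboxypeptidase gene Cpa1 was read on the same arrays as an index of it. In bulk RNA, more cells of a type and more RNA per cell cannot be told apart.

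Reg3b, Reg3d, Reg3a, Reg2, Reg1 and Reg3g lie next to each other on mouse chromosome 6 with no other coding gene between them, and Reg4 lies alone on chromosome 3 (RefSeq, build GRCm38.p6). All 7 matched a RefSeq promoter. The 250 bases before the start site are printed, 5′ to 3′ on the strand of the gene, for 5 members. Of these, Reg3b and Reg2 had the largest genotype differences, and Reg3g is most like Reg3b in this window. By Pearson r over the arrays, Reg1 followed Cpa1 most closely and Reg3a least. The windows are chr6:78370635-78370884 (plus strand) for Reg3b, chr6:78468875-78469124 (minus strand) for Reg3g, chr6:78404905-78405154 (plus) for Reg2, chr6:78425733-78425982 (plus) for Reg1 and chr6:78380459-78380708 (plus) for Reg3a. Capitals mark CACCTG and TTCCCA on either strand, short motifs found in the binding site of PTF1, the acinar transcription factor complex. They also mark TGNCCCTCCCT, the longest run of bases shared by the Reg2 and Reg3g windows (TGCCCCTCCCT, 11 bases) with 1 free base where Reg3b differs, which resembles an element described in the rat Reg promoter.

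Reg3b: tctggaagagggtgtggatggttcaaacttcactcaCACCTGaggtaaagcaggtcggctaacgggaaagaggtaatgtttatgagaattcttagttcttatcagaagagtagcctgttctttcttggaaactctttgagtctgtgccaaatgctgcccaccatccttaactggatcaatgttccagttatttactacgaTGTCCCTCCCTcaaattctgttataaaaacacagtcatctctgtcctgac
Reg3g: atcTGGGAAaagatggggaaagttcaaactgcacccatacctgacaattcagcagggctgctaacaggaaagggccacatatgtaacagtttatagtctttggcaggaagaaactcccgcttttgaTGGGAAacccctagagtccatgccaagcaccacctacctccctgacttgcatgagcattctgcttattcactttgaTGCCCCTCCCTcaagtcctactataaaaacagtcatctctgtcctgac
Reg2: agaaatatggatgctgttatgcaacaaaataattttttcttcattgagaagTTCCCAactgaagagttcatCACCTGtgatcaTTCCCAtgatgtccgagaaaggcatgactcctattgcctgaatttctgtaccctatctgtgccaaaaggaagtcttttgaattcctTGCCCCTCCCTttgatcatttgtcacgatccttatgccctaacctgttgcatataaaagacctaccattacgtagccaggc
Reg1: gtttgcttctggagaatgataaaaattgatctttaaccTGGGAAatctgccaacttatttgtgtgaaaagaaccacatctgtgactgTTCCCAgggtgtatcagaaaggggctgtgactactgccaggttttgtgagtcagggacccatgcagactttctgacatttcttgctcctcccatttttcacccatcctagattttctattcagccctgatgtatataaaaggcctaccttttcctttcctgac
Reg3a: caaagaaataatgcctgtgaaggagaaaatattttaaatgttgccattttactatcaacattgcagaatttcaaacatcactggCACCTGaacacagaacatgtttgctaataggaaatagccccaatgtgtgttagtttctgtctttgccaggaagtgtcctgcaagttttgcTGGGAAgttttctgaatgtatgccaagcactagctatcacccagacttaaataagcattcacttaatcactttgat

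The windows before Reg3b and Reg3g were 68.4% identical, the highest value among the pairs of the 7 members and Cpa1. Reg1 and Reg2, whose coding genes are neighbours, were next at 56.2%, and the lowest value was 41.4% for Reg1 and Cpa1. Both Reg3b and Reg3g carry the marked 11-base stretch close to the start, from base -50 to -40 in Reg3b and from -48 to -38 in Reg3g, and Reg2 carries it from -81 to -71. TGNCCCTCCCT was in 3 of 7 members (Reg2, Reg3b and Reg3g), against 0.314% of 32851 RefSeq windows of this length, and the exact run was in Reg2 and Reg3g, against 0.180%. As the run was taken from these windows, its presence in them is no finding, and only the share elsewhere is a measurement. Runs that differ from it at other bases were not searched for, in Reg1 or any other member. CACCTG was in 5 of 7 members, against 17.2% of all windows, and TTCCCA in 5 of 7, against 21.6%. TTCNNNGAA, the core of a STAT site, was in Reg3b and Reg3d, against 7.02%, and it overlaps TTCCCA in Reg3d. These are matches of letters within the window and no measurement of binding.

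The arrays bore out the genotype labels. Irs2 read 4.54 to 4.89 on the 4 Irs2-/- arrays, against 7.61 to 7.91 on the 4 WT arrays (log2 expression, the scale of all levels here). The labels do not say which part of the gene was deleted. Beta cell markers were high throughout, with a mean of 7 genes between 11.28 and 12.20 on Irs2-/- arrays and between 12.49 and 12.57 on WT arrays. Ins2, 1 of these genes, was the highest reading on every array (14.72 to 14.75), where a change may not show. Averaged over treatments, 5 of the 7 were lower in Irs2-/- islets at an adjusted p under 0.05 in limma. The 2 untreated WT arrays stood apart from each other in exocrine signal: Cpa1 read 9.75 on replicate 1 and 13.21 on replicate 2. The mean of 20 other acinar enzyme genes read 8.38 and 11.75 on those arrays, which span most of the range of the series. The 18S control probe sets averaged 11.12 to 11.92 on treated and 10.63 to 11.05 on untreated Irs2-/- arrays, against 11.94 to 12.58 on treated and 11.75 to 12.70 on untreated WT arrays, and their part in the results was not tested. The averaged genotype differences and the comparisons with untreated WT islets are therefore also given without either untreated WT array.

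Reg3b showed the largest genotype difference of the family. It read 11.62 and 10.58 in treated Irs2-/- islets and 8.78 and 11.39 in untreated Irs2-/- islets, against 5.62 and 6.12 in treated WT islets and 3.86 and 8.62 in untreated WT islets. All 4 Irs2-/- arrays thus lay above all 4 WT arrays, but the nearest pair, untreated Irs2-/- replicate 1 and untreated WT replicate 2, was only 0.16 apart. Averaged over both treatments the difference was 4.54 ± 0.99 (log2, Irs2-/- minus WT, ± SE), a 23.2-fold higher level, and its adjusted p in limma was 0.0163. It was 3.35 without untreated WT replicate 1 and 5.73 without replicate 2. By size it was the second largest positive difference of the 13369 genes tested. The second Reg3b probe set, which was not used in the comparisons, read 10.64 and 9.42 in treated and 7.33 and 10.48 in untreated Irs2-/- islets, against 5.91 and 6.21 in treated and 5.36 and 7.66 in untreated WT islets. There the groups overlapped at 1 array, and the averaged difference was 3.18 ± 0.73 (limma adjusted p = 0.0226 in a fit of every single-gene probe set). Whether either Reg3b probe set also reads RNA of other Reg genes was not tested, as probe sequences were not at hand.

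Reg2 had nearly the same pattern. It read 11.70 and 10.93 in treated and 10.64 and 11.96 in untreated Irs2-/- islets, against 7.38 and 7.60 in treated and 5.31 and 10.30 in untreated WT islets. The groups did not overlap here either, with a gap of 0.34 between untreated Irs2-/- replicate 1 and untreated WT replicate 2. The averaged difference was 3.66 ± 0.93, a 12.6-fold higher level (limma adjusted p = 0.0281). It was 2.41 without untreated WT replicate 1 and 4.91 without replicate 2. Of all pairs among the 5 tested members, Reg2 and Reg3b were the most alike over the 8 arrays (Pearson r = 0.980), as a description of arrays that differ in exocrine content.

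**Figure D1:**
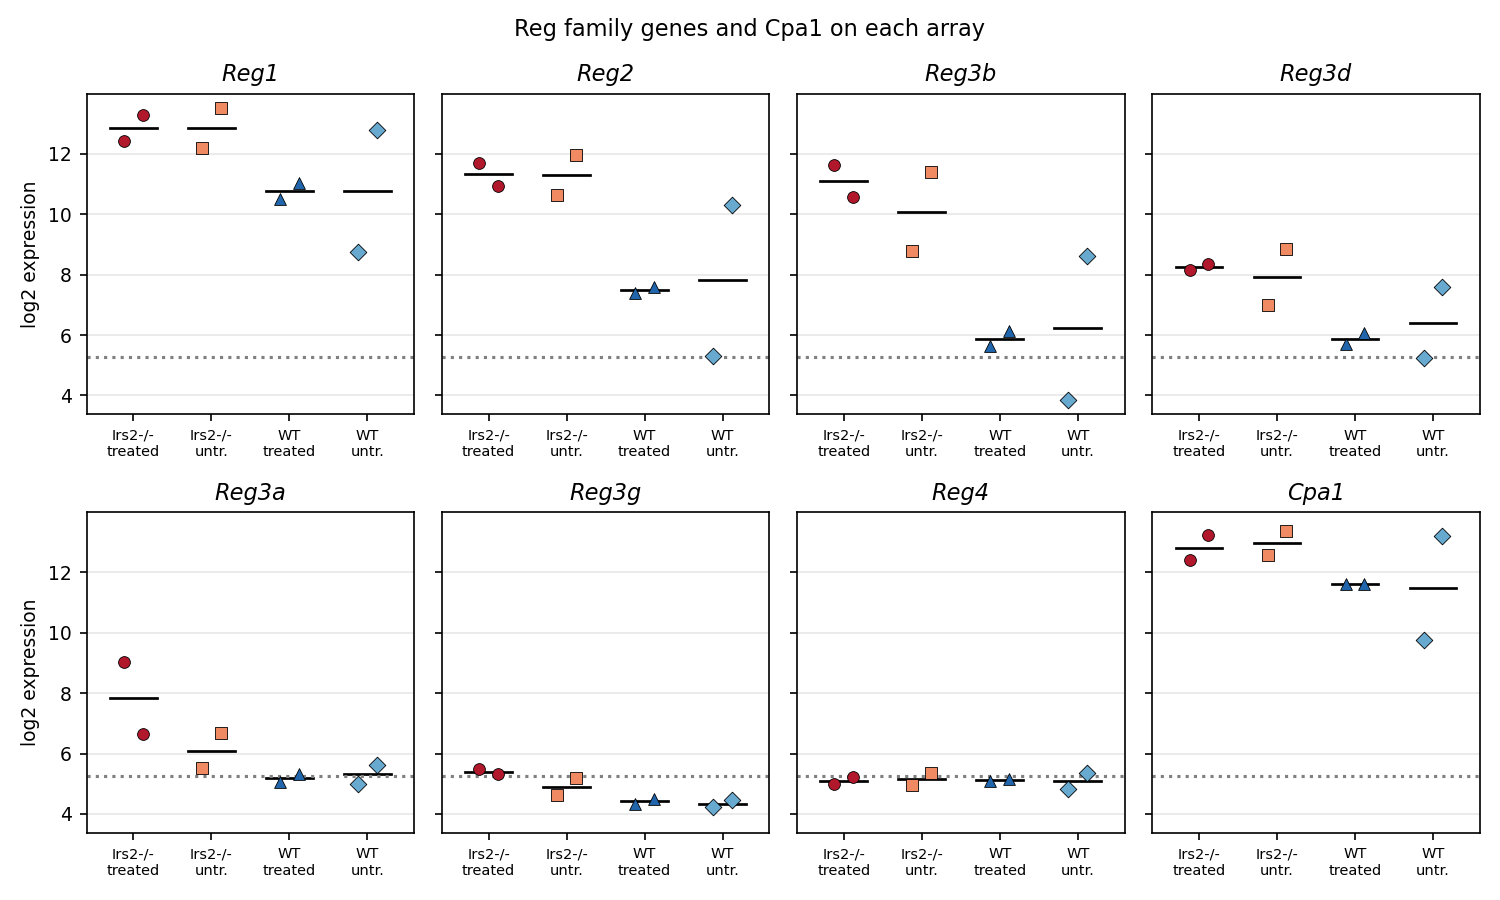
Log2 expression (vertical axis) of each Reg gene and of Cpa1 on the 2 arrays of each group (points), with the group mean (bar) and the level of 5.27 below which genes were not tested (dotted line). Reg3b and Reg2 lie higher on all 4 Irs2-/- arrays, while untreated WT replicate 2 comes close to them and replicate 1 is the lowest array for all 7 members and Cpa1.

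Reg1, the founding member, read 12.42 and 13.27 in treated and 12.19 and 13.51 in untreated Irs2-/- islets, against 10.50 and 11.03 in treated and 8.76 and 12.77 in untreated WT islets. Untreated WT replicate 2 lay above 2 of the 4 Irs2-/- arrays, so the groups overlapped. The averaged difference was 2.08 ± 0.77 and did not pass the test (limma adjusted p = 0.0911). It was 1.08 without untreated WT replicate 1 and 3.09 without replicate 2, where it passed. Reg3d read 8.15 and 8.35 in treated and 7.00 and 8.84 in untreated Irs2-/- islets, against 5.69 and 6.05 in treated and 5.25 and 7.58 in untreated WT islets. It overlapped at 1 array, untreated Irs2-/- replicate 1, and its averaged difference of 1.94 ± 0.54 passed (limma adjusted p = 0.0374). It was 1.36 without untreated WT replicate 1, where it no longer passed (limma adjusted p = 0.0661), and 2.53 without replicate 2.

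Reg3a set itself apart by 1 array. It read 9.03 and 6.65 in treated and 5.51 and 6.68 in untreated Irs2-/- islets, against 5.07 and 5.34 in treated and 4.99 and 5.63 in untreated WT islets. Treated Irs2-/- replicate 1 thus stood far above every other array, and untreated Irs2-/- replicate 1 lay within the WT range. The averaged difference was 1.71 ± 0.49 (limma adjusted p = 0.0430). Without treated Irs2-/- replicate 1 it was 1.12, with an adjusted p of 0.0455. It was 1.55 without untreated WT replicate 1 and 1.87 without replicate 2, and passed in neither fit (limma adjusted p = 0.117 and 0.0701).

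Reg3g and Reg4 were below the level at which genes were tested, a mean of 5.27 over the 8 arrays. Reg3g, the gut lectin whose promoter is nearest to that of Reg3b, read 5.49 and 5.32 in treated and 4.62 and 5.20 in untreated Irs2-/- islets, against 4.34 and 4.49 in treated and 4.22 and 4.47 in untreated WT islets. At this low level the groups still did not overlap, with a gap of 0.13. In a fit of all 18193 genes the averaged difference was 0.78 ± 0.14 (limma adjusted p = 0.00826). Probe sequences were not at hand, so whether this probe set also reads RNA of other Reg genes, such as Reg3b, was not tested. Reg4 read 4.98 and 5.22 in treated and 4.96 and 5.36 in untreated Irs2-/- islets, against 5.08 and 5.16 in treated and 4.82 and 5.36 in untreated WT islets, with a difference of 0.03 ± 0.14 in that fit (limma adjusted p = 0.932).

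Of the 7 members, 5 were tested and 4 of these (Reg2, Reg3a, Reg3b and Reg3d) rose with loss of Irs2 averaged over treatments. As a background, 22.1% of all genes tested passed in this comparison in either direction, and 10.9% of all genes tested passed upwards. Reg3a passed the filter on low values only through its Irs2-/- arrays, so it had to be high there to be tested, and the count of 4 is no support for a family-wide change. The 4 Irs2-/- arrays lay above the 4 WT arrays for 3 of the 7 members (Reg2, Reg3b and Reg3g), against 8.47% of the 18193 genes measured, and for 2 of the 5 tested members, against 9.55% of the genes tested. The calls depended on single arrays: 0 members passed without treated WT replicate 1 (10.4% of all genes tested passed there) or without treated WT replicate 2 (10.7%). Without untreated Irs2-/- replicate 2 it was 1 member (19.3% of all genes). Without untreated WT replicate 1 (14.9%) or without treated Irs2-/- replicate 1 (17.1%) it was 2, and without treated Irs2-/- replicate 2 it was 3 (22.5%). Without untreated Irs2-/- replicate 1 (16.7%) or without untreated WT replicate 2 (14.2%) it was 4. In the last of these Reg1 passed (limma adjusted p = 0.00499) and Reg3a did not (0.0701). With a variance trend and robust moderation 0 members passed, against 22.8% of all genes, with adjusted p between 0.0857 for Reg3b and 0.243 for Reg1.

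**Figure D2:**
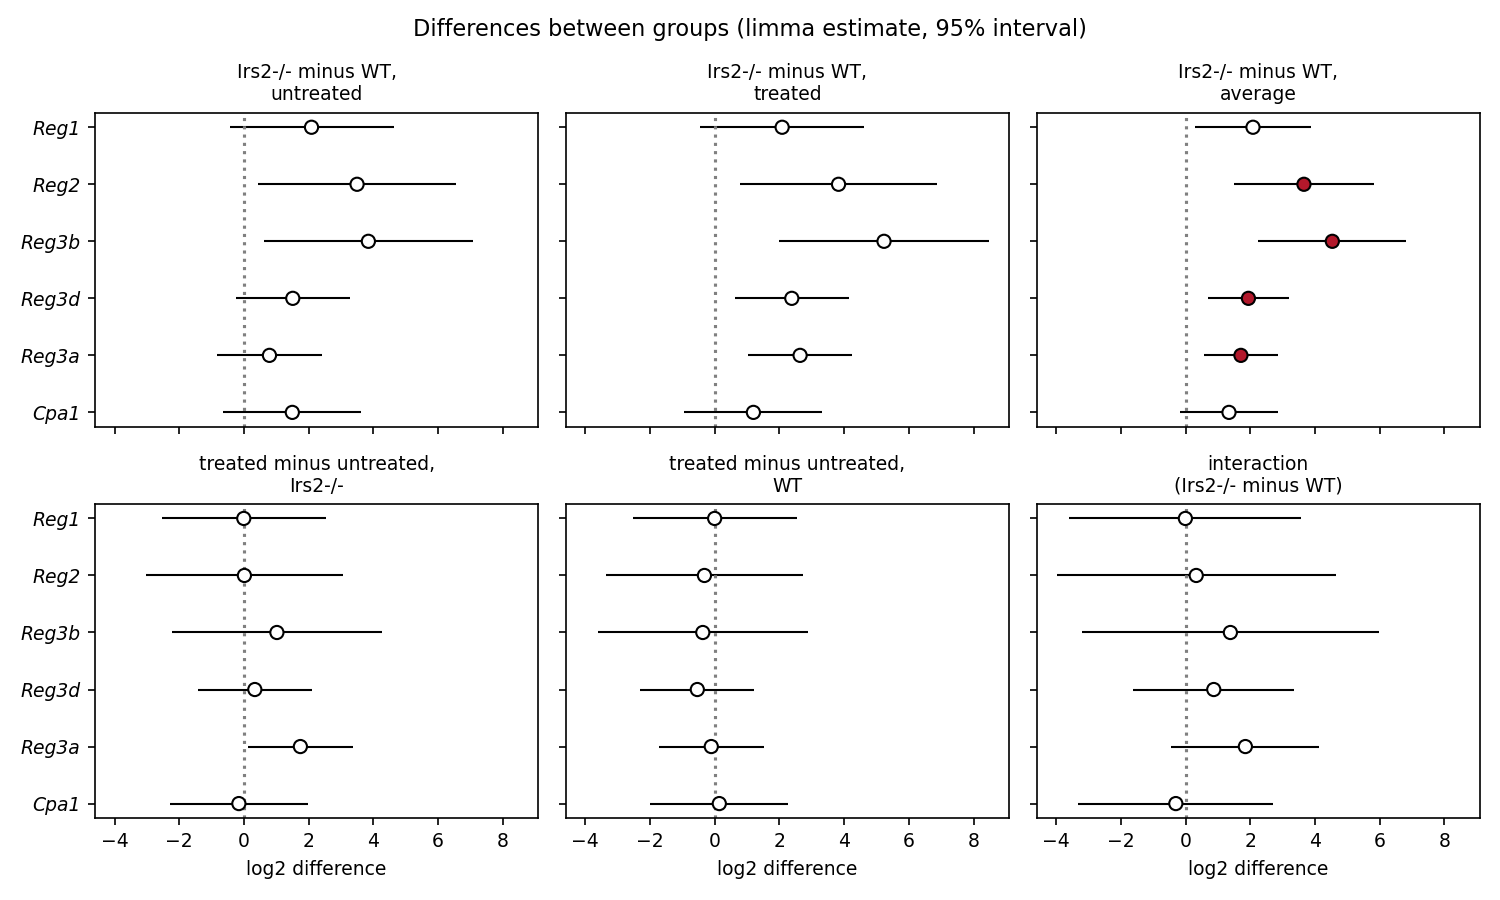
Log2 difference between groups (horizontal axis) for the 5 tested Reg genes and Cpa1, with its 95% interval from limma; filled points passed at an adjusted p under 0.05. The genotype differences of the Reg genes lie above 0 and passed only when averaged over treatments, where Reg1 did not pass. The lower row shows the treatment differences, largest for Reg3a and Reg3b in Irs2-/- islets, and the interaction, also largest for Reg3a and Reg3b. No gene passed in that row.

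Within each treatment the genotype difference was measured with 2 arrays against 2. In treated mice it was 5.23 ± 1.40 for Reg3b and 3.83 ± 1.32 for Reg2, the 2 largest positive differences of all genes tested, but 0 of 5 members passed (1.02% of all genes did), with limma adjusted p of 0.116 for Reg3b and 0.203 for Reg2. Reg3a differed by 2.64 ± 0.70, Reg3d by 2.38 ± 0.76 and Reg1 by 2.08 ± 1.10. This SE shares 1 spread over all 4 groups, and for Reg1, Reg2, Reg3b and Reg3d the untreated WT arrays were the pair farthest apart. With only the 4 treated arrays in the fit, 4 members passed, against 0.942% of all genes tested: Reg2, Reg3b and Reg3d each had an adjusted p of 0.00665 and Reg1 one of 0.0464. On these arrays Cpa1 was higher in Irs2-/- islets too (12.41 and 13.23, against 11.62 and 11.62 in WT islets). Genotype and exocrine content could therefore not be told apart there. With Cpa1 as a covariate in the fit of all 8 arrays, 0 members passed in treated mice, against 2.13% of all genes tested. With the mean of 20 other acinar enzyme genes as the covariate it was also 0, against 2.18%.

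In untreated mice 0 of 5 members passed, against 16.8% of all genes tested. The difference was 3.84 ± 1.40 for Reg3b (limma adjusted p = 0.0986), 3.49 ± 1.32 for Reg2, 2.09 ± 1.10 for Reg1, 1.51 ± 0.76 for Reg3d and 0.79 ± 0.70 for Reg3a. Which untreated WT array was kept moved these values strongly. Without replicate 1, whose Cpa1 was low, the difference was 1.46 for Reg3b, 0.999 for Reg2 and 0.08 for Reg1, with 0 members past the test (6.82% of all genes were). Without replicate 2, whose Cpa1 was high, it was 6.22 for Reg3b, 5.99 for Reg2 and 4.09 for Reg1, and these 3 passed, against 4.88% of all genes tested.

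Tungstate in Irs2-/- islets moved no tested member past the threshold (0 of 5, against 0.494% of all genes tested). Reg3a had a difference of 1.74 ± 0.70 between treated and untreated Irs2-/- islets, the largest positive value of all genes tested, with an unadjusted p of 0.0378 and a limma adjusted p of 0.341. It rested on treated Irs2-/- replicate 1, without which it was 0.55. Reg3b differed by 1.02 ± 1.40 and Reg3d by 0.33 ± 0.76. Reg1 differed by -0.01 with a 95% interval from -2.54 to 2.53, and Reg2 by 0.01 with one from -3.04 to 3.06, intervals that hold changes of several fold in either direction. In the same comparison gastrin (Gast), a hormone gene absent from healthy adult islets, fell by 2.32 ± 0.13 (limma adjusted p = 0.00174), and it read 7.85 and 7.76 in treated against 10.00 and 10.26 in untreated Irs2-/- islets.

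In WT islets 0 of 5 members passed for tungstate, and 0 of the 13369 genes tested did (0%). The differences lay between -0.54 for Reg3d and -0.003 for Reg1, and 0 of the 5 had an unadjusted p under 0.05. Treated WT islets gave the closest replicates of the series for Reg2 (0.22 apart), and untreated WT islets the widest (4.99 apart). The interaction, the treatment difference in Irs2-/- islets minus that in WT islets, passed for 0 of 5 members (0.0224% of all genes tested). It was 1.85 ± 0.99 for Reg3a (limma adjusted p = 0.816) and 1.39 ± 1.98 for Reg3b. Treated Irs2-/- against untreated WT islets gave 4.86 ± 1.40 for Reg3b, 3.51 ± 1.32 for Reg2 and 2.53 ± 0.70 for Reg3a, again with 0 of 5 past the test (0.352% of all genes tested); these comparisons share arrays with those above. Here too the untreated WT arrays decided the size. Without replicate 1 the difference was 2.48 for Reg3b, 1.01 for Reg2 and 2.21 for Reg3a, and 0 members passed (0.0299% of all genes did). Without replicate 2 it was 7.24 for Reg3b, 6.00 for Reg2 and 2.85 for Reg3a, and Reg2 alone passed (limma adjusted p = 0.0247), against 0.0898% of all genes tested.

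The members followed the exocrine index to different degrees. Cpa1 itself read 12.41 and 13.23 in treated and 12.58 and 13.37 in untreated Irs2-/- islets, against 11.62 and 11.62 in treated and 9.75 and 13.21 in untreated WT islets. Its averaged genotype difference was 1.34 ± 0.65 and did not pass (limma adjusted p = 0.179), and its groups overlapped. Reg1 tracked Cpa1 over the 8 arrays with r = 0.982 and Spearman's rho = 0.976. Its exact two-sided permutation p was 0.000174, and 0.0800 when adjusted over the 13368 other genes, of which 0.157% passed. The correlation was r = 0.912 and rho = 0.833 for Reg2 (exact permutation p = 0.0029 and 0.0154) and r = 0.878 and rho = 0.929 for Reg3d (exact permutation p = 0.00154 and 0.00223). It was r = 0.854 and rho = 0.738 for Reg3b (exact permutation p = 0.00491 and 0.0458) and r = 0.430 and rho = 0.762 for Reg3a (exact permutation p = 0.269 and 0.0368). The 5 relations with Cpa1 gave no adjusted p under 0.05 by either measure; by r it was 0.408 for Reg2, 0.321 for Reg3d, 0.479 for Reg3b and 0.629 for Reg3a, and by rho it lay between 0.133 for Reg1 and 0.438 for Reg3a and Reg3b.

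Across all genes the median correlation with Cpa1 was -0.05, and 40 genes exceeded 0.9. Leaving out the 2 arrays farthest from the median Cpa1 level, untreated Irs2-/- replicate 2 and untreated WT replicate 1, left r at 0.954 for Reg1, 0.844 for Reg3d, 0.784 for Reg2, 0.702 for Reg3b and 0.255 for Reg3a (n = 6, exact permutation p = 0.00694, 0.0403, 0.0903, 0.147 and 0.725 in that order, each 1 after adjustment). For Reg2 and Reg3b the relation therefore rested in part on those arrays. Within a group only 1 pair of arrays is available, so no correlation can be computed there. In untreated WT islets replicate 2 exceeded replicate 1 by 3.46 for Cpa1, 4.01 for Reg1, 4.99 for Reg2, 4.76 for Reg3b and 2.33 for Reg3d, but by 0.64 for Reg3a. In treated Irs2-/- islets Cpa1 and Reg1 were higher in replicate 2, by 0.82 and 0.84, whereas Reg2, Reg3b and Reg3a were lower there, by differences of -0.77, -1.04 and -2.39. In this pair alone Reg2, Reg3a and Reg3b ran against the exocrine index.

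**Figure D3:**
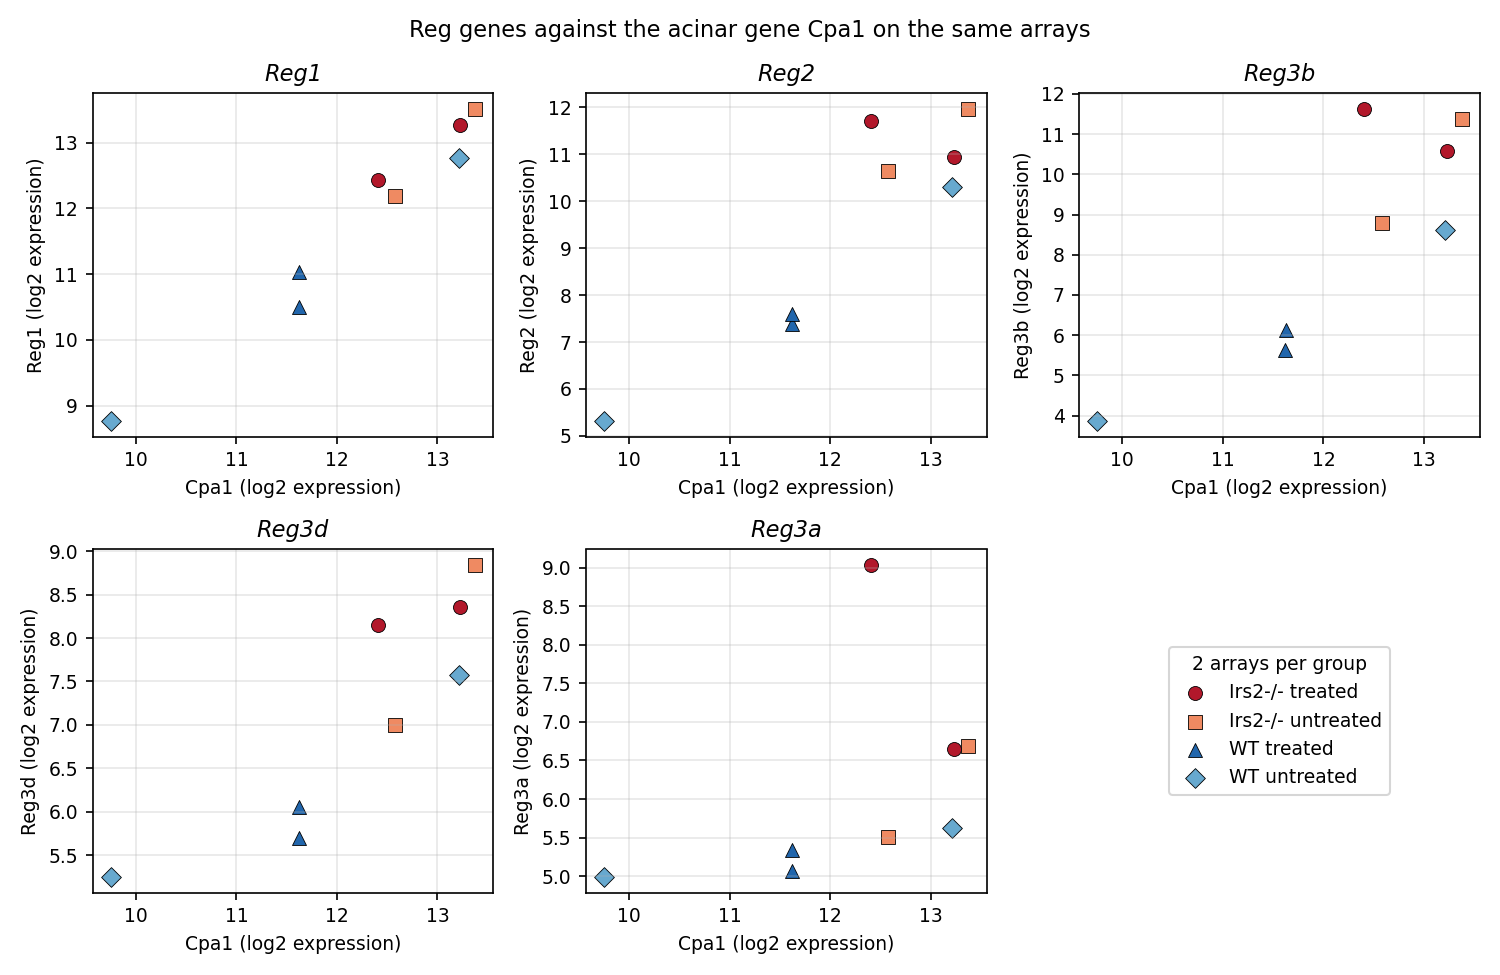
Log2 expression of each tested Reg gene (vertical axis) against that of Cpa1 on the same array (horizontal axis), 1 point per array, with 2 arrays per group. Reg1 follows Cpa1 over the whole range, the Irs2-/- arrays lie above the WT array of like Cpa1 for Reg2 and Reg3b, and treated Irs2-/- replicate 1 stands alone at the top for Reg3a.

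A direct comparison at like exocrine level was possible through untreated WT replicate 2, whose Cpa1 of 13.21 lay within the Irs2-/- range of 12.41 to 13.37. Relative to that 1 array, the 4 Irs2-/- arrays were at 0.159 to 3.002 for Reg3b and at 0.34 to 1.66 for Reg2, above it in 4 of 4 arrays each. They were at -0.58 to 0.74 for Reg1, -0.58 to 1.26 for Reg3d, -0.12 to 3.40 for Reg3a and -0.80 to 0.16 for Cpa1, so for these genes the Irs2-/- arrays lay on both sides of it. After the Cpa1 value of each array was subtracted, all 4 Irs2-/- arrays exceeded all 4 WT arrays for Reg1, Reg2 and Reg3b, and 1 of 4 did for Reg3a and Reg3d. All 4 did so for 0.0449% of the 13368 other genes tested, since the subtraction lowers every gene on arrays with high Cpa1. Most of those genes did not follow Cpa1 (median correlation -0.05), so that share is no like background. The subtraction also assumes that a gene changes by as much as Cpa1. Between the untreated WT arrays Cpa1 differed by 3.46, but Reg1 by 4.01, Reg2 by 4.99 and Reg3b by 4.76. Exocrine signal may thus remain in these genes, and whether their separation goes beyond it was not tested. The difference Reg1 minus Cpa1 ran from -0.38 to 0.14 on Irs2-/- arrays, against -1.13 to -0.44 on WT arrays, and for Reg3b minus Cpa1 it ran from -3.80 to -0.79, against -6.00 to -4.59.

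Cpa1 was then entered into the model as a covariate. Because each group has its own mean, the slope on Cpa1 came only from differences between replicates. These were 3.46 in untreated WT, 0.001 in treated WT, 0.80 in untreated Irs2-/- and 0.82 in treated Irs2-/- islets. The adjustment thus rested mainly on the 1 pair of untreated WT arrays. Without untreated WT replicate 1 it rested almost wholly on Irs2-/- arrays. The averaged genotype difference of Reg1 shrank to 0.51 ± 0.18 (limma adjusted p = 0.115) and that of Reg3d to 0.96 ± 0.33 (adjusted p = 0.105). Reg3b kept 2.75 ± 0.63 (limma adjusted p = 0.0314) and Reg2 1.87 ± 0.46 (adjusted p = 0.0377), and these 2 passed, against 13.8% of all genes tested. Reg3a was hardly moved, at 1.59 ± 0.64, but no longer passed (limma adjusted p = 0.153). With the mean of 20 other acinar enzyme genes as the covariate 0 members passed, against 12.3% of all genes tested: Reg3b was at 2.39 ± 0.76 (limma adjusted p = 0.0877), Reg2 at 1.54 ± 0.62 (0.159) and Reg1 at 0.14 ± 0.22 (0.744). With Cpa1 as the covariate and untreated WT replicate 1 left out, a setting added after the data had been seen, 1 member passed, against 15.4% of all genes tested: Reg2 was at 2.26 ± 0.44 (limma adjusted p = 0.0250) and Reg3b at 2.90 ± 0.77 (0.0563). The direction of all 5 differences stayed positive in these 3 fits.

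**Figure D4:**
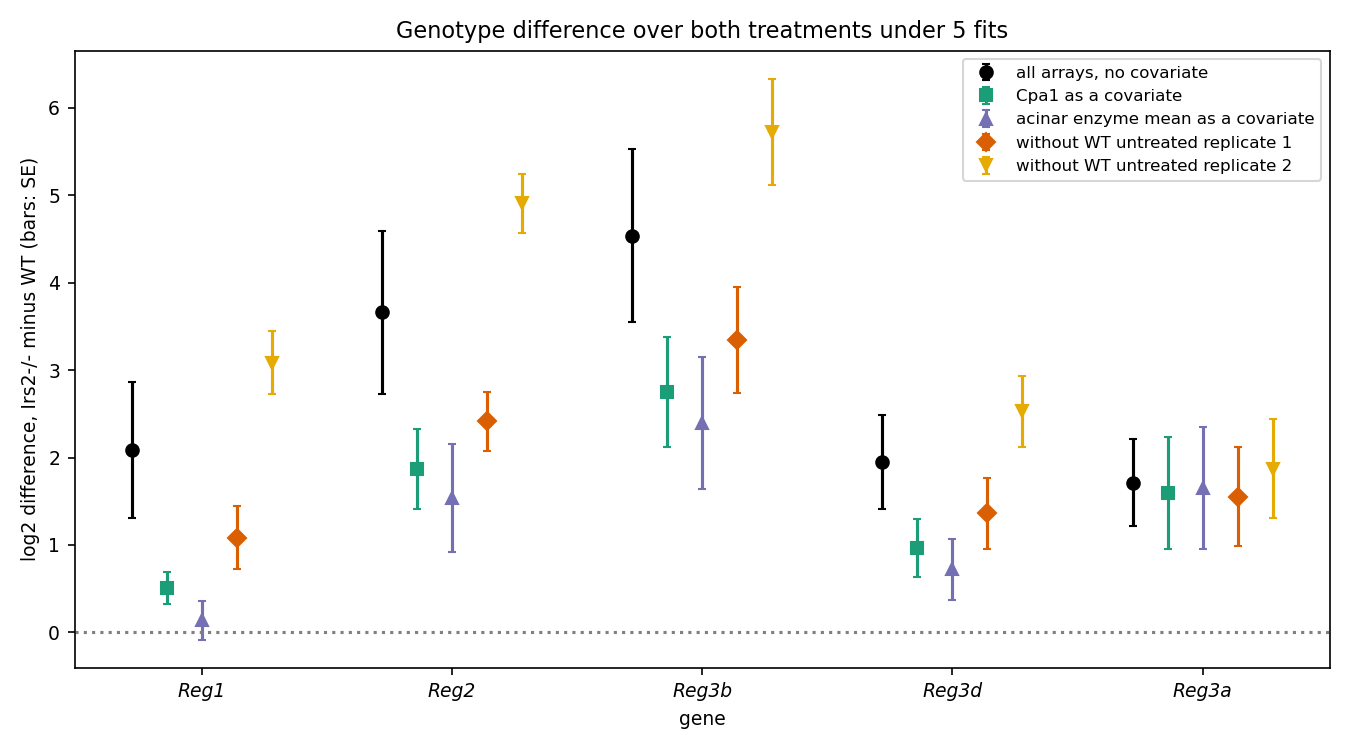
Averaged genotype difference (log2, Irs2-/- minus WT, bars are SE) of the 5 tested Reg genes under 5 fits: all arrays, Cpa1 as a covariate, the acinar enzyme mean as a covariate, and either untreated WT array left out. Reg1 shrinks to 0.51 with Cpa1 and to 0.14 with the acinar enzyme mean as the covariate, Reg2 and Reg3b stay above 1.5, and Reg3a hardly moves.

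Among the acinar enzyme genes, 21 were tested, Cpa1 included. All 21 had a positive averaged genotype difference, with a median of 1.54, against -0.01 for all genes tested, but only 1 rose: Prss3, a trypsinogen gene with close copies in the genome, at 4.65 ± 1.09 (limma adjusted p = 0.0206). Prss3 read 6.53 and 11.47 in treated and 10.83 and 13.20 in untreated Irs2-/- islets, against 5.47 and 5.53 in treated and 4.90 and 7.54 in untreated WT islets. It was low on treated Irs2-/- replicate 1, where Reg3a and Reg3b were highest. Against 10.9% of all genes tested that rose in this comparison, 4 of 10 tested genes of acinar regulation and stress rose and 0 fell. They were Cd44, a hyaluronan receptor (0.68 ± 0.13), Rbpjl, a subunit of the acinar PTF1 complex (0.57 ± 0.11), Clu, which encodes clusterin (0.66 ± 0.13), and Dmbt1, a secreted scavenger receptor protein (2.48 ± 0.70), with limma adjusted p between 0.00951 and 0.0391.

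Reg genes are induced by cytokines of the interleukin-6 and interleukin-22 families through STAT3. A wider list of signals linked to Reg genes held these cytokines, their receptors and STAT3 partners, other inflammatory cytokines (Tnf, Il1b and Il17a), proposed Reg receptor genes (Extl3 and Egfr) and acute-phase target genes. Of its 20 tested genes, 4 rose and 1 fell for genotype averaged over treatments, with a median difference of 0.10. In this comparison 22.1% of all genes tested passed in either direction and 10.9% passed upwards. In either direction the list was thus close to the background. The acute-phase gene Saa3 rose by 2.31 ± 0.26 (limma adjusted p = 0.00182). The receptor genes Il10rb (0.53 ± 0.09) and Osmr (0.98 ± 0.28) and the nuclear cofactor gene Bcl3 (0.48 ± 0.12) rose as well, and Lifr, the receptor gene for leukaemia inhibitory factor, fell by 1.21 ± 0.19 (limma adjusted p between 0.00488 and 0.0431). Saa3 read 6.44 and 7.55 in treated and 9.19 and 8.45 in untreated Irs2-/- islets, against 5.60 and 6.05 in treated and 5.35 and 5.41 in untreated WT islets. Its order thus differed from that of Reg3b, which was highest on treated Irs2-/- replicate 1. Stat3 read 8.83 to 9.27 on all arrays, and Il6, Lif, Ifng, Il22ra1 and Lcn2 were below the level tested.

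Gastrin is known to induce Reg1 in the rat stomach. Of 3 tested genes of the gastrin list 2 rose with loss of Irs2, against 10.9% of all genes tested. Both, Gast and Cckar, passed the filter on low values only through their Irs2-/- arrays, so they had to be high there to be tested. Gast rose by 4.33 ± 0.09 (limma adjusted p = 8.89e-07) and Cckar, the cholecystokinin receptor gene of acinar cells, by 1.71 ± 0.47 (adjusted p = 0.0370), while the gastrin receptor gene Cckbr was at 0.05 ± 0.13. Markers of other cells moved with genotype too, in a comparison where 22.1% of all genes tested passed in either direction. All 8 tested macrophage genes rose, with a mean level of 7.49 to 7.53 in treated and 8.53 to 8.81 in untreated Irs2-/- islets, against 7.18 to 7.26 in treated and 7.22 to 7.31 in untreated WT islets. Of 4 tested duct genes 3 rose, with a mean level of 6.89 to 7.55 in treated and 7.13 to 7.15 in untreated Irs2-/- islets, against 6.58 to 6.69 in treated and 6.76 to 6.79 in untreated WT islets. Of 6 tested lymphocyte genes 3 rose, with a mean level of 5.63 to 6.17 in treated and 7.00 to 8.04 in untreated Irs2-/- islets, against 5.29 to 5.80 in treated and 5.21 to 6.31 in untreated WT islets. Of 4 tested endothelial genes 2 rose, with a mean level of 7.59 to 8.29 in treated and 7.64 to 7.95 in untreated Irs2-/- islets, against 7.04 to 7.29 in treated and 7.33 to 7.35 in untreated WT islets. Of the 7 beta cell genes 5 fell, and of the 2 genes of alpha and delta cells 1 fell. Of the 5 gut epithelium genes 2 were tested and 0 moved, and Muc2, Fabp2 and Lgr5 were below the level tested. Cd68 of the macrophage list, Krt19 of the duct list, and Cd2 and Cd3g of the lymphocyte list passed the filter only through their Irs2-/- arrays. The counts of genes that rose in these lists were therefore partly set by the filter. The part of these other cells in the Reg differences was not tested. With tungstate 5 of the 8 macrophage genes fell in Irs2-/- islets, a comparison in which 0 Reg genes passed and 0.494% of all genes tested did.

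The genes outside the family whose levels were most like those of each member over the 8 arrays were found among 1000 tested genes with an SD of at least 0.5. For Reg1 they were the acinar genes Prss2 (r = 0.993), Gp2 (0.991) and Cel (0.987). Reg2 was nearest to Dmbt1 (0.981), Gp2 (0.966) and the chymotrypsinogen gene Ctrb1 (0.95). Reg3b was nearest to Gal, which encodes the neuropeptide galanin (0.962), then to Dmbt1 (0.951) and Gp2 (0.919), and Reg3d to Dmbt1 (0.956), Gal (0.951) and Cuzd1 (0.940). Gal read 8.00 and 7.91 in treated and 7.33 and 8.61 in untreated Irs2-/- islets, against 5.96 and 5.67 in treated and 5.52 and 6.70 in untreated WT islets. Reg3a was nearest to Car4 (0.878), the duct keratin gene Krt19 (0.876) and Gria3 (0.868), and Krt19 was highest, at 7.11, on the array where Reg3a was highest. These values rank genes over arrays that share tissue content and genotype and carry no test.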

How the data were processed

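RNA of pancreatic islets from 8 samples in 4 groups was measured on oligonucleotide arrays. Per the submitters' processing notes the signals were summarised by RMA in the affy package under R 2.7.0, and the authors deposited log2 values, 1 for each probe set and array. RMA shrinks differences between low values. Raw array files and scan dates were not used here. The 34945 probe sets that name 1 gene covered 18193 genes, and the highest of a gene's probe sets by mean was kept. Tests covered the 13369 genes at or above log2 5.27, the 40th percentile of probe set means.

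A linear model with 1 mean per group was fitted to all 8 arrays in limma 3.58.1 under R 4.3.3, using lmFit and eBayes (4 residual, 3.89 prior degrees of freedom). The 7 contrasts were adjusted separately over all genes tested (Benjamini-Hochberg), and an adjusted p under 0.05 counted as passed. The median SE of a difference between 2 groups was 0.14, and the number of arrays limits the precision. Correlations with Cpa1 were tested by exact permutation over all orders of the arrays. Promoter windows came from RefSeq (GRCm38.p6), were searched on both strands for the motifs spelled out above, and were aligned in Biopython 1.88 (match 1, mismatch -1, gap opening -3, extension -1). The fits and the correlations were tested on simulated data with independent noise for each gene. Such data hold no exocrine variation shared by many genes, so they cannot show how the calls behave under it.

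Named were the 7 members, Cpa1 and Irs2, per list up to 4 genes past the test by smallest p or, where none passed, the 2 with the smallest p, and the 3 genes most like each member. Further genes (Osmr, Tnf, Il1b, Il17a, Extl3, Egfr, Stat3, Cckbr, the untested ones and the gut markers) were named after their values had been seen. The members and lists were chosen with earlier results of these data known. Alternatives were other filters, variance models, normalizations and probe set rules, array weights, a replicate block, thresholds, exocrine covariates and leaving out each array.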

Additional observations from a re-analysis of the deposited data

How the results depend on the processing

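Over all genes tested the replicate numbers did not establish pairs, since the deviations of same-numbered arrays correlated between -0.07 and 0.42 over the 6 pairs of groups (0.42 for untreated Irs2-/- and untreated WT islets). For the genes followed here the numbers did share a direction. Replicate 2 read above replicate 1 in all 4 groups for Cpa1, Reg1, Reg3d and Reg4, for Cpa1 by only 0.001 in treated WT islets. For Reg2, Reg3a, Reg3b and Reg3g it did so in all but treated Irs2-/- islets. With the replicate number as a block, 4 members passed for genotype averaged over treatments: Reg1 (adjusted p = 0.0324), Reg2 (0.0229), Reg3b (0.0119) and Reg3d (0.0118), and Reg3a did not (0.0578), while 23.6% of all genes tested passed. The counts for the other contrasts remained at 0 of 5 under the block.

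For genotype averaged over treatments, where 4 members passed, 0 did with a variance trend and robust moderation, 2 with Cpa1 as a covariate, 0 with the acinar enzyme mean as a covariate, 0 with Cpa1 subtracted (a setting in which every gene takes on the error of Cpa1, so that 3 genes in all passed) and 1 with Cpa1 as a covariate and untreated WT replicate 1 left out. Between 3 and 5 passed under the other filters, normalizations, thresholds, probe set rules and array weights, but these counts were not all of the same set. Without a filter Reg3g and Reg4 were tested too, and Reg3g passed (limma adjusted p = 0.00826). In the fit of every single-gene probe set, probe sets were counted, and both of Reg3b passed (limma adjusted p = 0.0189 and 0.0226). For the other filters and probe set rules the share of all genes is not given, so those counts have no background. At an adjusted p under 0.1 the count of members was 5, against 31.9% of all genes tested, and with at least a 2-fold difference 4, against 3.19%. With the other normalizations and array weights it was 4, against 21.6% to 22.4%. For genotype in treated mice 4 passed with only the arrays compared, against 0.942% of all genes tested. In that contrast 0 passed with Cpa1 (2.13% of all genes) or the acinar enzyme mean (2.18%) as a covariate. In untreated mice 1 of 5 passed at an adjusted p under 0.1, no more than the background of 26.3% of all genes tested. Leaving out each array gave 0 to 4 members for genotype averaged over treatments, 0 to 3 in untreated and 0 to 2 in treated mice, 0 to 1 for treated Irs2-/- against untreated WT islets, and 0 for tungstate in either genotype, for the interaction and for the correlations with Cpa1. Where an arm kept 1 array, that array was assumed to vary like the others.

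Signs changed in values that had not passed. For tungstate in Irs2-/- islets Reg2 was at -0.031 with median centring, and Reg1 at 0.11 with quantile normalization, 0.18 and 0.54 with the Cpa1 and enzyme covariates, 0.15 with Cpa1 subtracted, and 0.20 with the Cpa1 covariate and untreated WT replicate 1 left out. For tungstate in WT islets Reg1 was at 0.092 (quantile normalization), 0.13 (enzyme covariate) and 0.11 (Cpa1 covariate without that array), and Reg3d at 0.28 in the last. The Reg1 interaction was at 0.022, 0.35, 0.41, 0.30 and 0.092 under quantile normalization, the Cpa1 covariate, the enzyme covariate, Cpa1 subtracted and the Cpa1 covariate without that array. For genotype in untreated mice Reg1 was at -0.070 with the enzyme covariate and Reg3a at -0.71 with Cpa1 subtracted. Leaving out single arrays moved tungstate in WT islets between -2.01 and 2.00 (Reg1), -2.81 and 2.18 (Reg2), -0.43 and 0.21 (Reg3a), -2.75 and 2.01 (Reg3b) and -1.70 and 0.63 (Reg3d). It moved tungstate in Irs2-/- islets between -0.66 and 0.65 (Reg1), -0.65 and 0.67 (Reg2), -0.29 and 2.32 (Reg3b) and -0.59 and 1.25 (Reg3d). The interaction moved between -2.01 and 2.00 (Reg1), -2.16 and 2.83 (Reg2), -0.99 and 3.77 (Reg3b) and -0.29 and 2.04 (Reg3d). The causes were not tested. Over the differences and correlations of single members under the settings other than leaving out each array in turn, 427 values kept their sign and side of the threshold, 19 lost and 5 gained a pass, and 17 changed sign; for leaving out each array in turn these numbers were 269, 17, 11 and 23.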
